A study of Mus musculus with 2 samples.

Results

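The 10 genes described here encode the main folding machines of the mouse cell: Hspa4, Hspa5, Hspa8, Hspa9, Hspa1a and Hspa1b of the Hsp70 superfamily, Hsph1 of the Hsp110 family, Hsp90aa1 and Hsp90ab1 of the Hsp90 family, and Hspd1, the mitochondrial Hsp60. They were chosen by name from among the genes of these families, with earlier results of these data known. They are 10 of the 21531 protein-coding genes whose strand could be set. Each was examined for promoter peaks, whose summit lay within 1 kb of the gene's outer 5′ end, and for gene-body peaks, whose summit lay inside the gene beyond that window. By textbook knowledge of their expression, Hspa4, Hspa5, Hspa8, Hspa9, Hsp90ab1 and Hspd1 were treated as 6 constitutive genes and Hspa1a, Hspa1b, Hsph1 and Hsp90aa1 as 4 heat-inducible genes.

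The peaks are those of CHD2, a chromodomain helicase that remodels nucleosomes, mapped by chromatin immunoprecipitation and sequencing in ES-E14, a male embryonic stem cell line of strain 129/Ola. The design holds 1 group of 2 biological replicates that carry the same biosample label, with no heat treatment named, no treated or mutant group and no control analysed here, so all values describe this line in culture with no treatment named. Peaks alone were used, so read depth is unknown and the identity of the cells could not be checked by marker expression. The mm10 lists were: an optimal list of 8282 peaks and a conservative list of 7530 peaks, both kept for the recurrence of a peak's rank, and 3 relaxed lists of 300000 peaks each (both replicates pooled, replicate 1 and replicate 2).

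Hsp70 proteins bind exposed hydrophobic stretches of unfolded proteins and release them in a cycle driven by ATP, and Hsp110 proteins speed that cycle by exchanging the nucleotide. Hsp90 acts later, on kinases, hormone receptors and other near-native clients, and Hsp60 encloses proteins in a barrel inside mitochondria. On heat or other protein damage, heat shock factors bind arrays of inverted GAA units, the heat shock elements, and raise transcription of the inducible genes, whereas the constitutive genes are transcribed without stress.

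Promoter sequences from RefSeq on GRCm38.p6 were matched for 6 of the 10 genes, with 8 start sites. No sequence was matched for Hspa8, Hspa9, Hsp90aa1 and Hsp90ab1. The 5 printed here were chosen because they span the range of occupancy, from the strongest peak (Hspa4) to none in the optimal list (Hspd1, Hspa1a). Each runs 5′ to 3′ from 250 bases before the start site through its first 30 bases, which is 280 of the 300 bases searched. Capitals mark exact matches, on either strand, to the letters searched: CCAAT (the NF-Y box, ATTGG on the other strand), GGGCGG (the GC box, CCGCCC on the other strand), CACGTG (the E box), GAANNTTC (the heat shock core), 3 alternately inverted heat shock units GAA and TTC with 2 bases between units, the ER stress element (CCAAT and CCACG with 9 bases between them, of which the outer bases are in capitals) and CTCGCGAG, a palindrome with 2 CG steps. TATAAA (the TATA box), TGACGTCA (the cAMP response element) and GCGCATGC (a part of the NRF1 site) were also searched and matched in none of the 8 windows, while they occur in 13.6%, 1.79% and 2.71% of all promoters. Exact matching misses variants, such as the tatataag in the Hspa5 sequence, so no match does not mean that such a site is lacking.
Hspa4 (chr11:53300450-53300729, minus strand): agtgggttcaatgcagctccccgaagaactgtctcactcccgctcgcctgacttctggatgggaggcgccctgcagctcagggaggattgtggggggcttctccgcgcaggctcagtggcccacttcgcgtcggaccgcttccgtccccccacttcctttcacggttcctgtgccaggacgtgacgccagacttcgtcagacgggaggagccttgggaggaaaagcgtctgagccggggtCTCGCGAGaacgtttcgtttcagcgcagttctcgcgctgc
Hspa5 (chr2:34771840-34772119, plus strand): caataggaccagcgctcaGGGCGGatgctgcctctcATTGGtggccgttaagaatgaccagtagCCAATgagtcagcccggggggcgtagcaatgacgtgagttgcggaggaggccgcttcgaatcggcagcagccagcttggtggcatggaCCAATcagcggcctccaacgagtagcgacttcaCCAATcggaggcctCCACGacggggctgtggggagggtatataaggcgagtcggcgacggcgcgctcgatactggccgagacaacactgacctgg
Hsph1, the inner of 2 start sites (chr5:149636286-149636565, minus strand): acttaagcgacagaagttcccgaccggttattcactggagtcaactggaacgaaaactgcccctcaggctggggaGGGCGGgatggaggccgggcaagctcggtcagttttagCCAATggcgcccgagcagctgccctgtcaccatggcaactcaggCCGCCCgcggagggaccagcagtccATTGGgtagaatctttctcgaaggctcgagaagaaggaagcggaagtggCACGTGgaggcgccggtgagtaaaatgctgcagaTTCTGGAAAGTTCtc
Hspd1, the inner of 2 start sites (chr1:55087903-55088182, minus strand): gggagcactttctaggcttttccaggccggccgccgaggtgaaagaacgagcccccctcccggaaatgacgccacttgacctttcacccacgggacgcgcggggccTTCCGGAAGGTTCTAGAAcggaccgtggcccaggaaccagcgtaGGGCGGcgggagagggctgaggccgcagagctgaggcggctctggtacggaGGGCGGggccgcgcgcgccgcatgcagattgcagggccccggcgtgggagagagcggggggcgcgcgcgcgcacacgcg
Hspa1a (chr17:34972127-34972406, minus strand): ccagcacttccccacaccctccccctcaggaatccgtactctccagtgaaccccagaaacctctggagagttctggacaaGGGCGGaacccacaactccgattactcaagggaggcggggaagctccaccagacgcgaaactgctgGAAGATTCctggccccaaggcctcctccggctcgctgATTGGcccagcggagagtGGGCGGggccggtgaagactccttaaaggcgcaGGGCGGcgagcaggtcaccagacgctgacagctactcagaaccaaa

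In the optimal list, 6 of the 10 chaperone genes had a CHD2 promoter peak, where the same held for 14.1% of all protein-coding genes. They were Hspa4, Hspa5, Hspa8, Hsp90ab1, Hspa9 and Hsph1. The signals, which are the peak caller's own values and were compared within a list alone, ran from 420 at Hspa4 to 20.3 at Hspa9. Hspd1, Hsp90aa1, Hspa1a and Hspa1b had none. In the conservative list the count was 5 of 10 against 13.6% of all genes, and the gene lost was Hspa9. Among the 3036 genes with an optimal promoter peak the median strongest signal was 45.0 (quartiles 28.1 and 88.9). Hspa4, Hspa5 and Hspa8 lay above that median and Hsp90ab1, Hsph1 and Hspa9 below it.

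**Figure D1:**
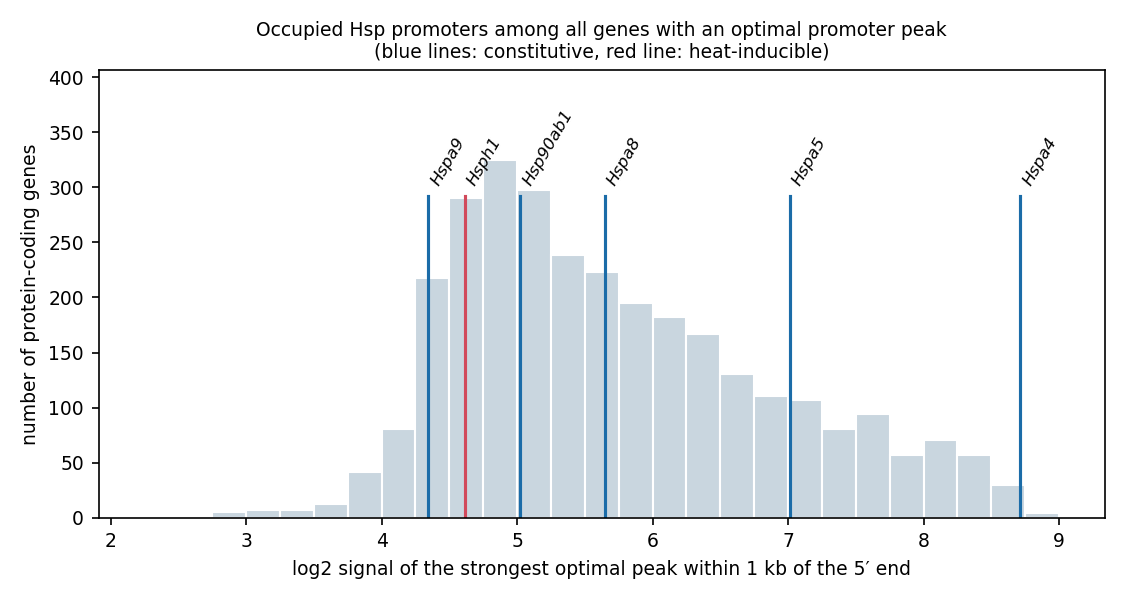
Histogram of the log2 signal of the strongest optimal peak within 1 kb of the 5′ end, for the 3036 protein-coding genes that had such a peak; vertical lines mark 6 chaperone genes (blue constitutive, red heat-inducible). Hspa4 stands near the right edge of the distribution, Hspa5 in its upper part, and Hspa9 and Hsph1 to the left of its median.

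The relaxed lists were long enough to reach most genes, and a peak there carries less weight. All 10 genes had a promoter peak in the pooled relaxed list (57.7% of all genes) and in the replicate 2 relaxed list (59.6%). In the replicate 1 relaxed list 8 of the 10 did (50.4% of all genes), and the genes without a peak were Hspa1a and Hspa1b. The ranks of the strongest promoter peak in the pooled relaxed list spanned 9 at Hspa4 to 112667 at Hspa1a.

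**Figure D2:**
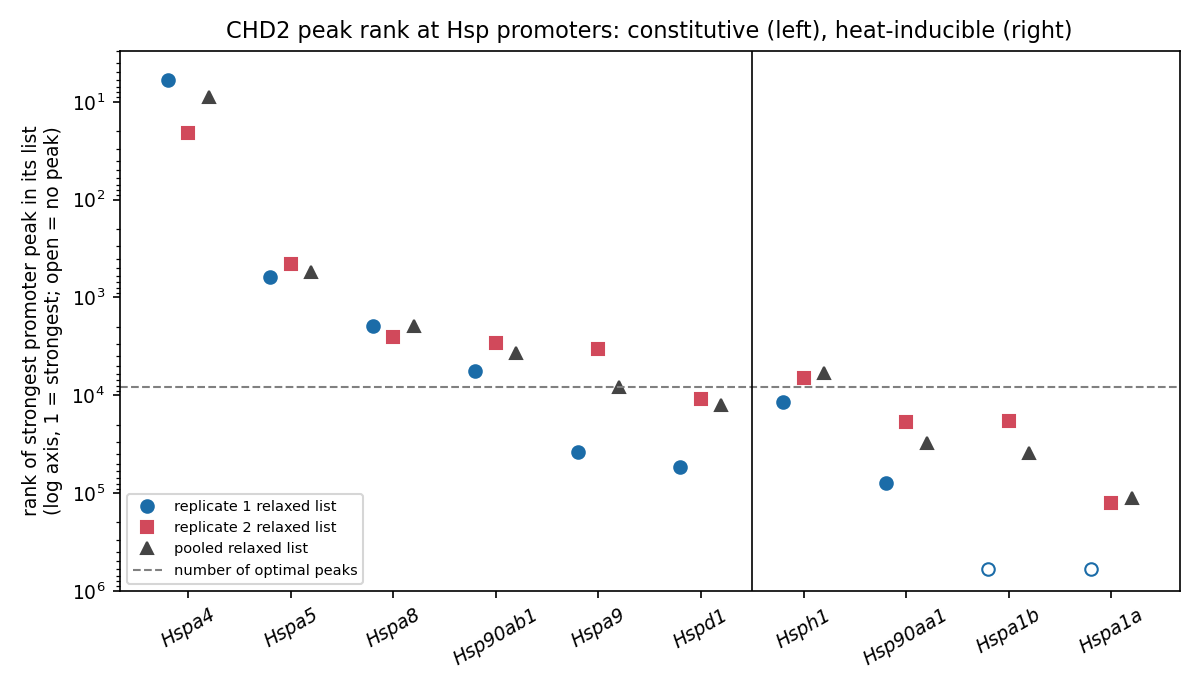
Rank of the strongest CHD2 promoter peak of each gene within replicate 1, replicate 2 and pooled relaxed lists (log axis, rank 1 at the top; open circles mark no peak in the window), with constitutive genes left of the vertical line and heat-inducible genes right of it. The dashed line is the size of the optimal list, 8282 peaks; Hspa4, Hspa5, Hspa8 and Hsp90ab1 lie above it in both replicates, and Hspa9 and Hsph1 lie above it in replicate 2 and below it in replicate 1.

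Hspa4 encodes a large Hsp70 relative that serves as a nucleotide exchange factor in the cytosol, and it had by far the highest signal of the 10. The gene spans chr11:53259814-53300479 on the minus strand. Its optimal peak (chr11:53300333-53300636, 304 bp wide) had a signal of 420, the 9th highest of the list and of the 3036 genes, and 9.35 times the median gene. The summit lay 4 bp inside the gene in both replicates, at rank 6 in replicate 1 (signal 236) and rank 21 in replicate 2 (signal 184). The optimal, conservative and pooled relaxed lists held the same peak. It was well separated in signal from its surroundings: the next strongest promoter peak in the pooled relaxed list had a signal of 13.1, which was 32.1 times lower. The nearest other annotated 5′ end was 7306 bp away. Of the letters searched, its RefSeq promoter held the CTCGCGAG palindrome alone, 10 bp before the start, with its centre 10.5 bp from the summit. The peak reached further into the gene than the window searched, so a part of it was not searched. That palindrome was added to the search after this sequence had been seen, and it occurs in 0.919% of the 32851 RefSeq promoters of the same length.

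Hspa5, the ER chaperone BiP and a marker of the unfolded protein response, had the next highest signal. The gene lies at chr2:34772090-34776529 on the plus strand. The optimal signal was 129 with the summit 230 bp upstream of the 5′ end, rank 543 of the list and 495 of the 3036 genes. In replicate 1 the signal was 60.9 at rank 624 and in replicate 2 it was 70.4 at rank 458, with summits 224 and 237 bp upstream. The replicate summits of Hspa5 were thus 13 bp apart. Its promoter held 4 CCAAT boxes, a GC box and an ER stress element, through which the factor ATF6 is known to act with NF-Y. The summit was 0.5 bp from the centre of the GC box and 174 bp from the centre of the 1 exact match to the ER stress element. The peak (chr2:34771762-34771953) began upstream of the window searched, so a part of it was not searched. CCAAT occurs in 37.4% of all promoters, GGGCGG in 35.7% and the ER stress element, added after the sequence had been seen, in 0.119%.

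Hspa8, the abundant cytosolic Hsc70 that also uncoats clathrin vesicles, had a signal close to that of the median occupied gene. It lies at chr9:40801276-40805202 on the plus strand. The optimal signal was 50.1 with the summit 106 bp upstream, rank 1950 of the list and 1365 of the 3036 genes. The signals in the replicates were 26.0 (rank 1964, 105 bp upstream) and 22.4 (rank 2517, 103 bp upstream). Both replicates therefore held it in the upper part of the 8282 strongest peaks at nearly the same position.

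Hsp90ab1, the constitutive cytosolic Hsp90, carried more than 1 optimal promoter peak. Its position is chr17:45567778-45573261 on the minus strand. The stronger peak had a signal of 32.5 with the summit 85 bp upstream (rank 3616), and a further peak 720 bp upstream had a signal of 15.6 (rank 7424) and was not in the conservative list. The strongest summits of replicate 1 (signal 13.6, rank 5587, 93 bp upstream) and replicate 2 (signal 20.2, rank 2954, 51 bp upstream) were 42 bp apart. This promoter is shared with a divergent transcript: the summit at 85 bp lay inside the long non-coding gene Gm35399 and 31 bp from its 5′ end, so the peak cannot be assigned to either gene.

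Hspa9, the mitochondrial Hsp70 (mortalin) that pulls imported proteins through the inner membrane, had a weak peak that differed between the replicates. The gene lies at chr18:34937414-34954351 on the minus strand. Its optimal peaks had summits 20 bp inside the gene (signal 20.3, rank 6617) and 211 bp upstream (signal 19.4, rank 6867). Replicate 1 had its strongest peak 12 bp inside the gene, with a signal of 6.81 at rank 37843. Replicate 2 had its strongest peak 211 bp upstream, with a signal of 18.8 at rank 3332. These ranks belong to summits at different positions and fell on either side of the size of the optimal list. The upstream peak of replicate 2 was within that size, and the peak of replicate 1 inside the gene was not. Neither peak was in the conservative list, and no other annotated 5′ end lay within 1 kb.

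Hsph1, the inducible cytosolic Hsp110 and a nucleotide exchange factor like Hspa4, was the heat-inducible gene with an optimal peak. It spans chr5:149616843-149636498 on the minus strand. The optimal signal was 24.5 with the summit 268 bp upstream, rank 5378 of the list and 2523 of the 3036 genes. Replicate 1 gave 9.70 at rank 11625 (268 bp upstream) and replicate 2 gave 12.96 at rank 6603 (273 bp upstream). The positions lay 5 bp apart, yet the rank in replicate 1 was beyond the size of the optimal list. The RefSeq start sites lie 162 and 183 bp inside the outer end, so the summit was outside the sequence windows searched. From the inner start, the window held 3 heat shock units in a row 15 bp after the start, 2 CCAAT boxes and an E box. Such a row of units occurs in 0.603% of all promoters and the shorter heat shock core in 7.86%.

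Hspd1, which forms the mitochondrial Hsp60 barrel, was the constitutive gene without an optimal peak. The gene lies at chr1:55077833-55088243 on the minus strand, and it overlaps the 5′ part of the divergent gene Hspe1, its Hsp10 lid. In the pooled relaxed list the strongest peak was 156 bp inside Hspd1 with a signal of 16.4 (rank 12504), followed by one of 15.9 at 768 bp inside. The first of these summits lay 61 bp from the 5′ end of Hspe1, so it too cannot be assigned to either gene. Replicate 2 placed its strongest peak 155 bp inside (signal 10.1, rank 10946) and replicate 1 placed it 814 bp inside (signal 6.22, rank 54066). The inner RefSeq start lies 311 bp inside the outer end, and the pooled summit fell 155 bp before it. Its window held 2 overlapping rows of 3 heat shock units 144 and 139 bp before the start, the nearer centred 17 bp from the summit. The Hspd1 windows held 39 CpG each, more than 95.6% of all promoters had. The windows of the other genes searched held from 15 (Hspa1a) to 25 (Hspa4 and Hspa5), where the median promoter held 7.

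Hsp90aa1, the stress-inducible cytosolic Hsp90, had weak and scattered promoter peaks. It spans chr12:110691036-110696395 on the minus strand. The pooled relaxed signal was 11.4 at 572 bp upstream (rank 31011). Replicate 1 gave 5.62 at 600 bp upstream (rank 79611) and replicate 2 gave 8.06 at 408 bp upstream (rank 18831). The summits spread over 192 bp and none was in the optimal or the conservative list. The pooled signal was 0.982 times the median of 11.6 over the 12421 genes with a pooled promoter peak.

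Hspa1a and Hspa1b, the classical heat-induced Hsp70 pair, had the weakest promoter peaks of the 10 in the pooled relaxed list. They lie at chr17:34969359-34972156 and chr17:34956429-34959238 on the minus strand, 10120 bp apart. At Hspa1b the pooled relaxed signal was 10.6 at 492 bp upstream (rank 39375), and replicate 2 gave 8.16 at 495 bp upstream (rank 18216). At Hspa1a the pooled signal was 7.85 at 926 bp upstream (rank 112667), a summit inside the divergent gene Hspa1l and 379 bp from its 5′ end. Replicate 2 gave 4.07 at 415 bp upstream of Hspa1a (rank 125094). That summit lay nearer to the 5′ end of Hspa1l, and the peak was also the strongest of replicate 2 within 1 kb of that end. Replicate 1 had no peak within 1 kb of the 5′ end of Hspa1a or of Hspa1b. It did have a gene-body peak in Hspa1b, with a signal of 4.06 at rank 227661.

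The RefSeq promoter windows of the pair are nearly identical in sequence, which bears on reads mapped there. The relaxed promoter summits of both genes lay upstream of these windows, in sequence that was not compared. Over the 300 bases of the RefSeq promoters, 296 were the same (98.7%), and the differences from Hspa1a to Hspa1b were C44T, T47C, T249G and C276T, counted from the 5′ end of the window. Both held a heat shock core 104 bp before the start, a CCAAT box 67 bp before the start and 3 GC boxes. The treatment of reads that map to more than 1 place is not given in the sources used here, so reads left unplaced and a lack of CHD2 cannot be told apart at this pair.

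**Figure D3:**
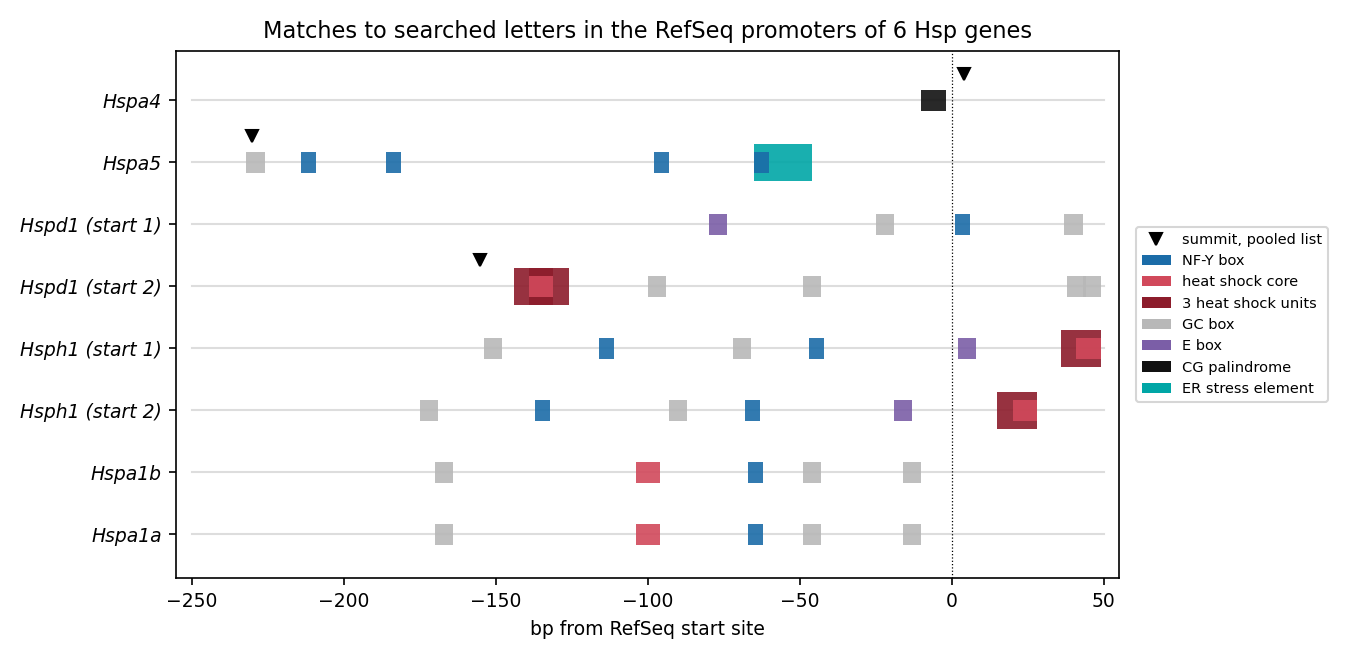
Exact matches to the searched letters along the 300-base RefSeq promoters of 6 genes (x axis, bp from the start site; coloured boxes by motif; triangles, strongest pooled summit where it falls in the window). The Hspa4 row holds the CG palindrome alone beside its summit, and the Hspa5 summit lies over the GC box at the far upstream end.

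By class, 5 of the 6 constitutive genes and 1 of the 4 heat-inducible genes had an optimal promoter peak. That is 83.3% against 25%, a difference of 58.3 percentage points, where 14.1% of all protein-coding genes had one. In the conservative list it was 4 of 6 against 1 of 4, where 13.6% of all genes had one. The strongest pooled relaxed signal ranged from 16.4 (Hspd1) to 420 (Hspa4) in the constitutive class and from 7.85 (Hspa1a) to 24.5 (Hsph1) in the heat-inducible class. The classes overlapped, since Hsph1 lay above both Hspa9 and Hspd1. Genes are not replicates of a class and 10 genes were chosen by name with earlier results of these data known, so the difference was not tested. It moved with how genes were assigned: it was 75 points with Hspa1a and Hspa1b alone as inducible, 66.7 with Hspd1 and Hspa5 added to the 4 heat-inducible genes and 50 with the Hspa1a and Hspa1b pair counted once. The sign was the same in each of these, and each scored the Hspa1a and Hspa1b pair as without a peak. Unplaced reads and a lack of CHD2 cannot be told apart at that pair, so how far the difference rests on it is unknown. No alternative left the pair out. Without it, the heat-inducible class held Hsph1, with an optimal peak, and Hsp90aa1, without one. The Hsp90ab1 peak, counted for the constitutive class, is shared with Gm35399.

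Membership of the optimal list did not follow the signal alone. The Hsp90ab1 peak at 720 bp upstream was the weakest promoter peak of the 10 genes in that list, with a signal of 15.6, where the lowest signal of the whole list was 5.74. The Hspd1 peak of 16.4 and a Hsp90ab1 gene-body peak of 19.4 were in the pooled relaxed list with higher signals and were not in the optimal list.

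**Figure D4:**
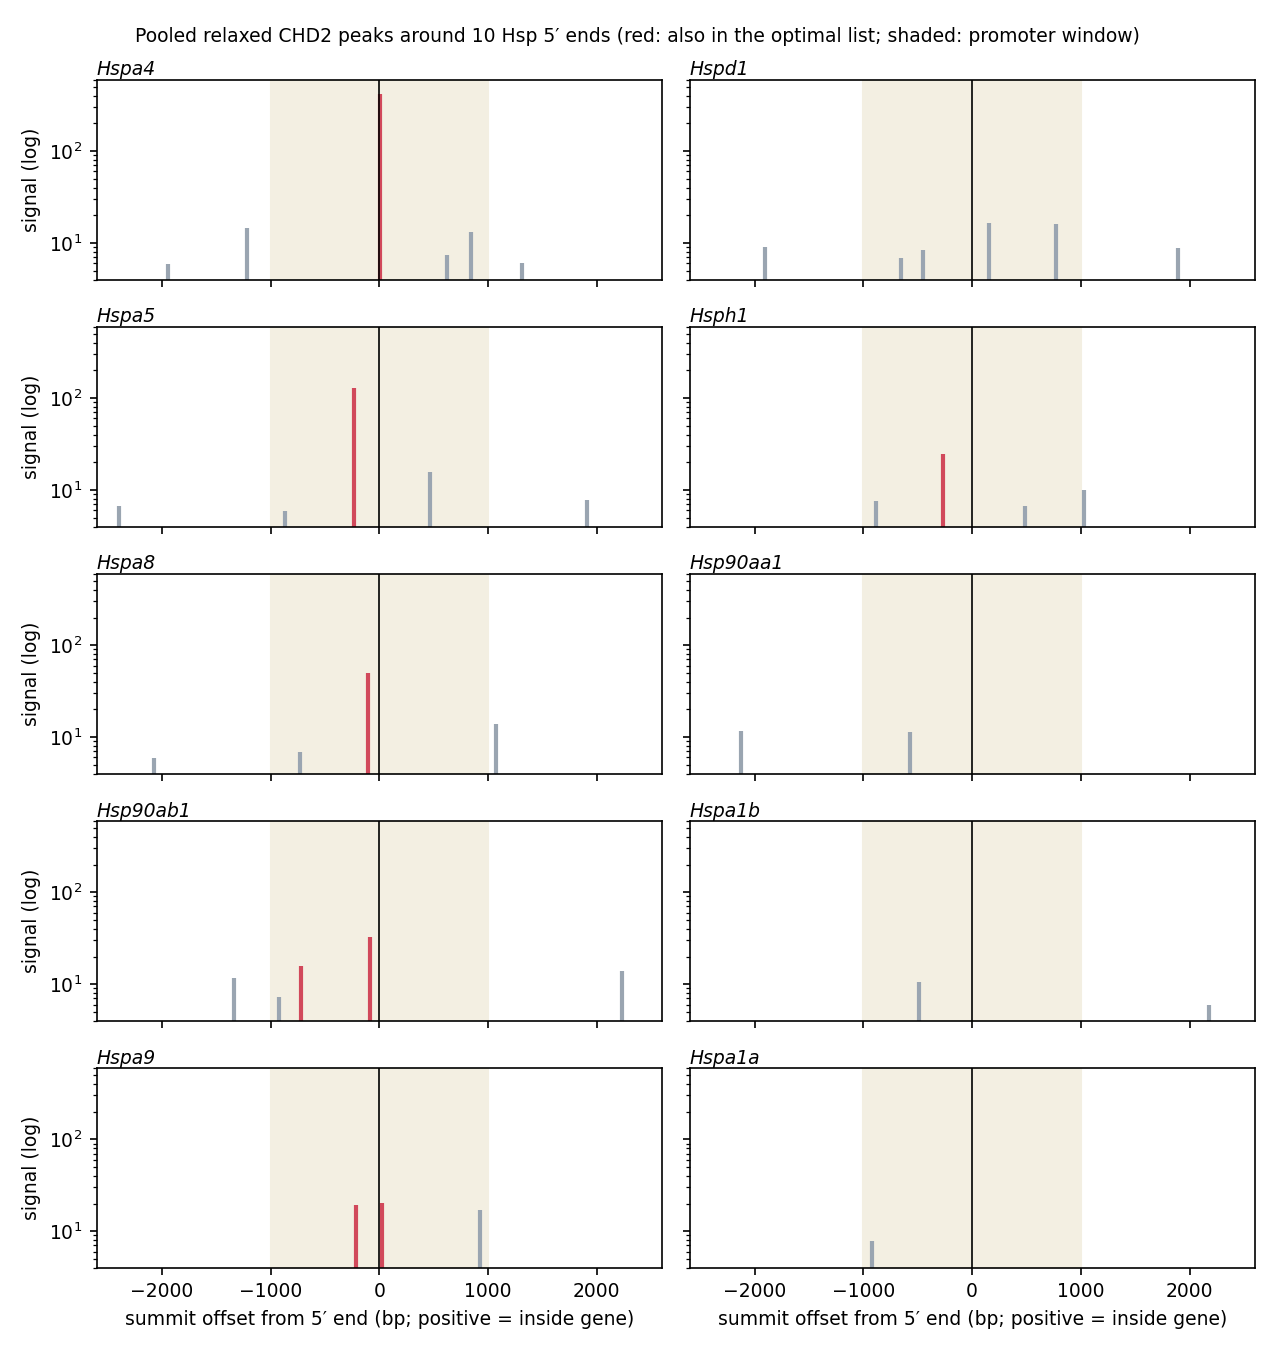
Summits of pooled relaxed CHD2 peaks around the 5′ ends of the 10 genes (x axis, bp, positive inside the gene; y axis, the authors' signal on a log scale; red, also in the optimal list; shaded, the window of 1 kb on each side). Hspa4 and Hspa5 show a single tall peak, Hsp90ab1 and Hspa9 each have 2 red summits, and Hsp90aa1, Hspa1b and Hspa1a have grey summits alone, all upstream in the window.

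Of the 10 genes, 1 had a gene-body peak in the optimal list, a share of 10% where 9.11% of all genes had any. It was Hspa4, with a signal of 17.1 at rank 7261 and a summit 39804 bp from the 5′ end, near the far end of a gene of 40666 bp. The peak was not in the conservative list, where 0 of the 10 genes had a gene-body peak against 8.22% of all genes. In the replicates it had 10.4 (rank 9669) and 7.33 (rank 23860), both beyond the size of the optimal list. The bodies of the other 9 genes held none in either list.

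In the pooled relaxed list 9 of the 10 genes had a gene-body peak (71.3% of all genes), in replicate 1 also 9 (70.5%) and in replicate 2 8 (71.9%). Hspa1a had none in all 3, and Hspa8 had none in replicate 2. The density of pooled relaxed gene-body peaks ran from 0 per kb at Hspa1a and 0.268 at Hsph1 to 0.872 at Hspa5 and 1.12 at Hsp90ab1, where the median over 19024 genes with a body of 1 kb or more was 0.142 (quartiles 0.0592 and 0.246). Hspa4 held 24 such peaks, or 0.605 per kb. Its own count differed between the replicates, with 10 peaks (0.252 per kb) in replicate 1 and 29 (0.731 per kb) in replicate 2, where the upper quartiles over all genes were 0.215 and 0.260. Densities in short bodies rest on few peaks: Hspa8 and Hspa1b had 1 each and Hspa5 had 3. The 3′ part of Hspa5 also overlaps Rabepk. The strongest pooled gene-body summit of Hspa5, 3638 bp inside the gene, lay in that overlap, and the one 1909 bp inside lay before it. Hspa8 holds the small nucleolar RNA genes Snord14c, Snord14d and Snord14e, but its pooled gene-body peak (chr9:40802173-40802532) ended before the first of them, at 40803583.

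The separate mm9 list of 4613 peaks, which has its own signal scale, held promoter peaks at 3 of the 10 genes and at 10.8% of 22238 genes. They were Hspa4 (signal 1058, rank 10, chr11:53113823-53114153), Hspa8 (56.0, rank 2065, chr9:40609074-40609437) and Hsp90ab1 (33.1, rank 4511, chr17:45710082-45710445). Hspa5, which ranked above Hspa8 in both replicates and in the lists derived from them on mm10, was not in it. The 4 heat-inducible genes, Hspa9 and Hspd1 were not in it either.

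Of the 54 other chaperone genes listed by family, 21 (38.9%) had an optimal promoter peak, against 60% of the 10 described here and 14.1% of all genes. The share was 5 of 8 in the rest of the Hsp70 superfamily: Hspa12a (138), Hyou1, the ER exchange factor for Hspa5 (108), Hspa2 of the male germ line (70.2) and Hspa14 (47.3) had the strongest signals, and Hspa12b and Hspa1l were among those without. Among the organelle Hsp90 and Hsp60 partners it was 2 of 3, Hsp90b1 of the ER at 65.0 and Trap1 of mitochondria at 43.95, with Hspe1 having none. Among co-chaperones it was 12 of 28, among them Stip1, the adaptor that joins Hsp70 to Hsp90 (179), Ptges3, the p23 of Hsp90 (107), and Cacybp (72.8). Ahsa1, which stimulates the Hsp90 ATPase, and Bag1, an Hsp70 exchange factor, had none. Among heat shock factors, small heat shock proteins and genes grouped with them it was 2 of 15, with Cryaa and Cryab among those without. The 2 were Hsbp1 (223), a heat shock factor binding protein that is neither, and the small heat shock protein gene Hspb6 (75.8). Another protein-coding 5′ end was nearer to the summit for 4 of the 21 genes, among them Hspa14, Hspb6 and St13, the last named after its position was seen.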

How the data were processed

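CHD2 peaks of 2 biological replicates of ES-E14 cells were read from the deposited lists. Per the labels, each replicate is a separate library, and both carry the same biosample label, so a spread between them may be technical. The deposited signal of a peak is the caller's own value and has no stated normalization. It was compared within a list alone. Summit positions follow the summit column of each list. The irreproducible discovery rate procedure, a score of how well peak ranks recur, was applied to the relaxed lists to give the optimal and the conservative list, per the deposited descriptions. Not given in the sources used here are the peak caller, aligner, versions, filters and the treatment of reads with several matches. Read depth is unknown, which leaves the precision of each signal unstated, and the control was not analysed here.

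For mm10, gene positions were those of RefSeq on GRCm38.p6. Strand came from the RefSeq promoter table for 17492 genes and from GENCODE M1, by symbol or synonym, for 4039, together 21531 of 21900 protein-coding genes (98.3%). Where both gave a strand it was the same for 14707 of 14747. The mm9 list was set against GENCODE M1, and no coordinate was moved between builds. Promoter peaks were those with a summit 1 kb or less from the outer 5′ end, and letters were matched exactly on both strands. Motif matches were sought in RefSeq promoters alone, and the sequence around mm9 starts, which had been planned for genes with no promoter entry, was not used here. Ranks run from the strongest signal, and a peak was matched between lists by an overlap of 1 bp or more. Peak placement was tested on simulated peaks. No statistical test was run, because 1 group of 2 replicates offers no contrast and genes are not replicates. Alternatives were other lists, each replicate's 8282 strongest peaks, other windows, other classes and the mm9 list. Python 3.11.15, pandas 2.3.3, numpy 2.4.6 and matplotlib 3.10.9 were used.

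The 10 genes, their classes and the lists of other chaperones were chosen with earlier results of these data known, so their counts are descriptions. Named were the 10 genes in every list, genes with a 5′ end within 1 kb of a member promoter summit or nearer to it, and per other list up to 4 genes with the strongest promoter peaks and up to 2 without, in alphabetical order. A result that this rule gives for the co-chaperones is not reported here. Gm35399 has a 5′ end in that range. Rabepk, the Snord14 genes and St13 fall outside this rule and were named once their positions were known.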

Additional observations from a re-analysis of the deposited data

How the results depend on the processing

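Each alternative changed 1 choice, except the mm9 list, which changed the peaks, build, annotation and start sites together. The count of 6 of the 10 genes with a promoter peak was 5 with the conservative list and 6 with the pooled relaxed list reduced to 8282 peaks, with windows of 500 bp and 2.5 kb, with peak intervals in place of summits and with any RefSeq start site, an alternative chosen after seeing the data. It was 4 in the stronger part of the optimal list, above its median signal, and 3 in the mm9 list. Leaving out each replicate in turn gave 4 to 6: replicate 1 alone lost Hspa9 and Hsph1. The share of all genes with a promoter peak was 14.1% in the optimal, 13.6% in the conservative and 10.8% in the mm9 list. That share was not counted for the other cuts, windows and start sites, so their counts have no background to be set against. The class difference of 58.3 percentage points was 41.7 with the conservative list, 66.7 in the stronger part of the optimal list, 50 in the mm9 list, 75 with the strict inducible class, 66.7 with the broad class, 50 with the Hspa1a and Hspa1b pair counted once, and 58.3 to 66.7 without each replicate. None reversed its sign, and each scored the Hspa1a and Hspa1b pair, where unplaced reads are possible, as without a peak. The 21 other chaperone genes became 12 in the mm9 list, and 14 to 22 under the other alternatives. The 1 gene with a gene-body peak became 0 with the conservative list and 0 with the pooled relaxed list reduced to 8282 peaks. It was 1 without each replicate, but a different gene: Hspa8 in replicate 1 (signal 12.9, rank 6143) and Hspd1 in replicate 2 (signal 12.0, rank 7706). The cause of these shifts was not tested. No paired analysis was possible because there was 1 group. Read depth is unknown, so a weak peak and a missed peak cannot be separated.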
